A study of Mus musculus with 12 samples.

Results

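The hypoxia sensing genes described here are Hif1a, Arnt, Vhl, Egln1, Egln2, Egln3, Hif1an, Vegfa and Bnip3, chosen by symbol as the core of the oxygen response, and all 9 were found among the 17419 genes of the table. They were measured in NIH-3T3 cells, an established line of immortalised mouse fibroblasts, labelled wild type in all 12 libraries. Cells received 4-thiouridine (4sU), a uridine analogue that is built into newly made RNA, at 800 µM for 15, 30, 60, 90 or 120 min, or none (no4sU), with 2 replicates, A and B, in each of the 6 groups. The labels name no other treatment and no change of oxygen. The values are of RNA in cultured cells, and the activity of the pathway was not measured. In SLAM-seq, iodoacetamide alkylates this 4sU, which then appears as a T-to-C change in the reads. From these changes the authors estimated for each gene the fraction of its RNA that is new, the new-to-total ratio (NTR).

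Hif1a encodes the oxygen-regulated alpha subunit of the hypoxia-inducible factor (HIF), and Arnt encodes its constitutive beta partner. With oxygen present, the prolyl hydroxylases encoded by Egln1, Egln2 and Egln3 modify the alpha subunit, the Vhl protein binds the hydroxylated form as the substrate receptor of a ubiquitin ligase, and the proteasome degrades it. The asparagine hydroxylase encoded by Hif1an blocks the contact of the alpha subunit with its coactivators. Under low oxygen the alpha subunit persists and, with Arnt, raises the transcription of genes such as Vegfa, a growth factor for blood vessels, and Bnip3, a mitochondrial protein that takes part in mitophagy.

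Stretches of the 3′ untranslated region (UTR) of Vegfa, Hif1a and Bnip3 are shown because these transcripts carried the motif ATTTA, the core of AU-rich elements, most densely among the 9 genes, while their NTR lay far apart. Each stretch is the first window of 30 bases with the most copies in the 3′ UTR of the longest protein-coding transcript of GENCODE M21 (GRCm38). In Bnip3 no window held more than 1 copy, so its stretch is the first of several equal ones. All stretches are given 5′ to 3′ on the transcribed strand, with the motif in capitals. They lie at chr17:46017607-46017636 on the minus strand for Vegfa, at chr12:73945996-73946025 on the plus strand for Hif1a, and at chr7:138891775-138891804 on the minus strand for Bnip3.
Vegfa: tcttggttaatATTTAatttcaactATTTA
Hif1a: tcATTTAaaatgcacctttttATTTATTTA
Bnip3: ttgttctgtaaatgcggtgttcctgATTTA

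Vegfa held 9 copies in its 3′ UTR of 1868 bases, or 4.82 per kilobase, Bnip3 held 5 copies (4.62 per kilobase) and Hif1a 8 (4.37 per kilobase). Counted on the transcribed strand with overlapping matches included, these densities lay above those of 93.4%, 92.7% and 91.5% of the 8662 genes that had 100 or more counts on average and 100 or more bases of 3′ UTR. The median gene had 1.45 per kilobase, and 74.3% of the genes had at least 1 copy. Egln3 had 4 copies (2.43 per kilobase), Arnt 3 (1.62), Egln1 3 (1.41), Hif1an 4 in a long 3′ UTR of 5119 bases (0.781), Vhl 1 (0.484) and Egln2 0. Vhl and Hif1an, whose NTR was among the highest of the 9 genes, thus had low densities. Across the 8662 genes the Spearman correlation with the NTR after 120 min was 0.133 for the density and 0.296 for the length of the 3′ UTR. Both are descriptions over genes that share libraries.

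HIF binds the core ACGTG in DNA, and likewise the variant that begins with G, GCGTG, and promoter stretches of the HIF targets Bnip3 and Vegfa are shown because they differ in it. Each is the 160 bases before a transcript start in RefSeq (GRCm38.p6), with matches on either strand in capitals, at chr7:138909507-138909666 for Bnip3 and chr17:46032378-46032537 for Vegfa, both on the minus strand.
Bnip3: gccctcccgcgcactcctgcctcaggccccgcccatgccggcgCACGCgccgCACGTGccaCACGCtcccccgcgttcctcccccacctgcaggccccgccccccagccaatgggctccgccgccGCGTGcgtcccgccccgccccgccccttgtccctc
Vegfa: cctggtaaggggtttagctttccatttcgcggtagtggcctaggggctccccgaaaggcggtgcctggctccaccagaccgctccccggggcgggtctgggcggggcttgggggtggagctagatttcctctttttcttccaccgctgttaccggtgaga

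Matches were counted in windows from 250 bases before to 50 after each start. Bnip3 had 5 matches, a pair of them overlapping on opposite strands of 1 palindrome, and 1.66% of the 32851 windows in the table had 5 or more. The main Vegfa window had 0, and a second annotated start of Vegfa had 2. One Egln2 window had more matches than Bnip3, 6, and Hif1a had 3. Of the 11 windows of the 9 genes, 8 held at least 1 match, against 43.8% of all windows. The absence of a match says only that these letters were not in this window.

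Mean counts of the 9 genes ran from 124.9 (Egln3) to 1971 (Hif1a), and 9 of 9 passed the filter on low counts. Total counts per library lay between 9917026 and 13739380, with 2 replicates per group, and 9065 genes reached a mean of 100 counts. The no4sU libraries differed more from each other than the labelled pairs did in several of the genes. Hif1a was at 140 CPM (counts scaled to a common library size by TMM) in no4sU replicate A and 182 in replicate B, and Hif1an at 60.8 and 73.7. The 8 fibroblast markers were all in the table, with a summed level of 15800 to 15900 CPM in no4sU, 16100 in both 15 min libraries and 18800 to 19400 after 120 min; the part of this rise in the results was not tested. Of the 4 markers of each other lineage, 2 epithelial, 2 leukocyte and 4 endothelial genes were in the table, with summed levels of at most 0.904, 0.651 and 1.8 CPM.

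By 120 min Vegfa had the highest NTR of the 9 genes. In replicates A and B its NTR was 0.0375 and 0.0294 after 15 min, 0.228 and 0.180 after 30 min, 0.601 and 0.613 after 60 min, 0.817 and 0.845 after 90 min, and 0.922 and 0.953 after 120 min. At 120 min the authors' 90% intervals ran from 0.882 to 0.954 and from 0.912 to 0.980. Its values after 60 min already lay above the median gene after 120 min. The NTR of the median gene was 0.010 ± 0.00474 (SD, n = 2) after 15 min, 0.155 ± 0.00424 after 60 min and 0.354 ± 0.00566 after 120 min.

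Bnip3, named above beside Vegfa as an example of a target gene, was at the opposite end. Its NTR in replicates A and B was 0.0566 and 0.110 after 60 min, and it was 0.241 and 0.172 after 120 min, with 90% intervals from 0.193 to 0.299 and from 0.134 to 0.220. Both libraries lay below the median gene after 120 min. Its mean count was 300.5, and the intervals were wide for so low a ratio.

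Hif1a lay near the median gene. Its NTR was 0.0119 and 0.0096 after 15 min, 0.0620 and 0.0679 after 30 min, 0.162 and 0.190 after 60 min, 0.270 and 0.262 after 90 min, and 0.346 and 0.370 after 120 min. Its libraries lay at percentiles 45.5 to 61.5 of the 9065 genes. Both were above the median gene after 30, 60 and 90 min, and the lower ends of the 90% intervals of replicate B, 0.0537, 0.171 and 0.240, lay above the medians of those libraries, 0.0529, 0.158 and 0.234. In replicate A the lower ends, 0.0495, 0.1431 and 0.2488, lay below the medians, 0.0512, 0.152 and 0.254. Arnt, the partner of Hif1a, was replaced faster, with 0.260 and 0.313 after 60 min and 0.6625 and 0.654 after 120 min. The intervals of Arnt after 120 min, 0.612 to 0.711 and 0.604 to 0.703, lay above those of Hif1a, 0.322 to 0.370 and 0.348 to 0.393.

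The genes that act against HIF fell into fast and slow ones. Vhl was at 0.674 and 0.505 after 60 min, the first of them above both Vegfa values of that time, with intervals of 0.583 to 0.760 and 0.426 to 0.588 that met only at their ends, and at 0.885 and 0.883 after 120 min. Hif1an rose from 0.326 and 0.366 after 60 min to 0.803 and 0.801 after 120 min. After 120 min Hif1an lay at the percentile 87.2 of the 9065 genes in both libraries, and Vhl at 92.0 and 91.6.

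The 3 prolyl hydroxylases differed among themselves. At 120 min Egln3 was at 0.515 and 0.534, Egln2 at 0.404 and 0.390, and Egln1 at 0.262 and 0.246. The intervals of Egln1 reached at most 0.298 and did not meet those of Egln2, which began at 0.353. Egln3 had wide intervals, 0.409 to 0.626 and 0.433 to 0.638, at a mean count of 124.9, and they overlapped those of Egln2 in part.

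**Figure D1:**
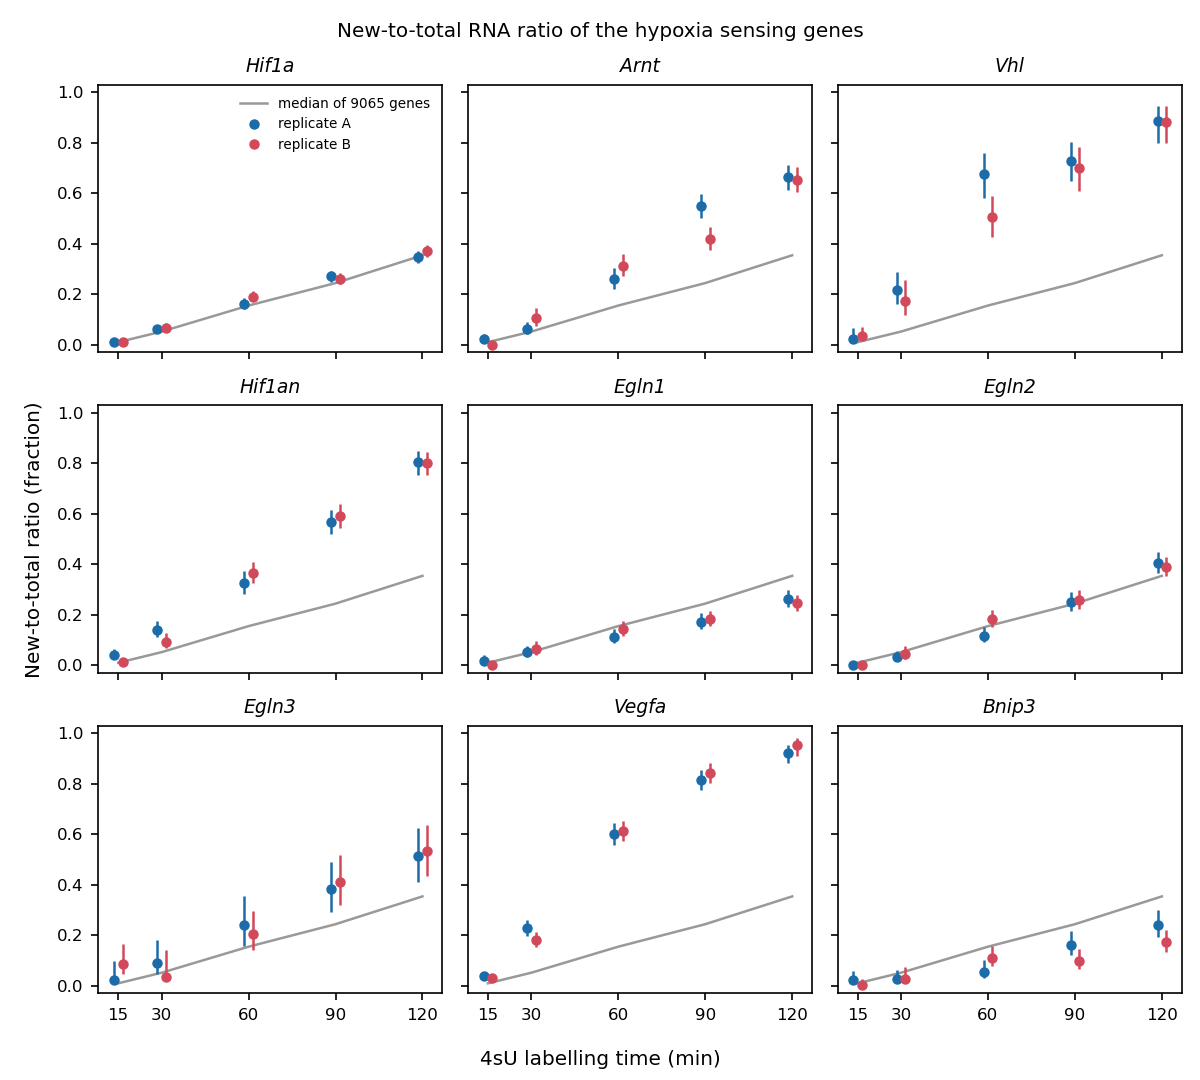
New-to-total ratio (fraction, vertical axis) against labelling time in minutes for the 9 genes. Points are single libraries (A blue, B red), bars the authors' 90% intervals, and the grey line the median of 9065 genes. Vegfa, Vhl, Hif1an, Arnt and Egln3 lie above the line from 60 min on, Hif1a lies near it, and Egln1 and Bnip3 lie below it after 120 min.

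The NTR can be read as an apparent half-life if RNA levels stay constant, by simple exponential replacement of old by new RNA (used for an NTR between 0.01 and 0.99). The counts of Vegfa, Vhl, Hif1an and Arnt did not stay constant, as they were called lower at long labelling times (below). Their values are thus only apparent. At 120 min the order ran from Vegfa at 29.9 ± 3.8 min (SD, n = 2) through Vhl at 38.6 ± 0.24, Hif1an at 51.4 ± 0.159, Arnt at 77.5 ± 1.28, Egln3 at 112 ± 4.21, Egln2 at 164 ± 5.29, Hif1a at 188 ± 11.4 and Egln1 at 284 ± 15.1 to Bnip3 at 371 ± 98.2 min. Neighbours in this order were further apart than the sum of their SDs, except Egln1 and Bnip3. The median gene was at 198 ± 5.66 min. With 2 against 2 libraries an exact permutation test cannot reach a p of 0.05, so single pairs were not tested.

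In 9 of 9 genes the apparent half-life from the 120 min libraries was shorter than that from 30 min, though not every step between them went down: Vhl was at 48.1 ± 15.6 min (SD, n = 2) from 60 min and 49.9 ± 3.01 from 90 min, and Egln1 at 312 ± 56.1 and 320 ± 15.2. From 15 to 30 min Egln3 went from 262 ± 210 to 397 ± 250 min, and Bnip3 from 485 in the 1 library that gave a value to 786 ± 4.32. For Vegfa they were 310 ± 54 min from the 15 min libraries, 92.7 ± 17.4 from 30 min, 44.5 ± 1.02 from 60 min and 35.2 ± 2.31 from 90 min. For Hif1a they were 310 ± 20.6 from 30 min, 216 ± 27.3 from 60 min and 202 ± 5.6 from 90 min. The median gene went from 515 ± 63.6 min after 15 min and 368 ± 11.3 after 30 min to 246 ± 7.78 after 60 min and 224 ± 14.8 after 90 min.

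The genes most like Hif1a in NTR over the 10 labelled libraries, by the root mean square difference among 9065 genes, were Dis3, a ribonuclease of the exosome (0.0102), M6pr, a mannose phosphate receptor (0.0106), and Marchf5, a mitochondrial ubiquitin ligase (0.0107). The median gene was 0.109 away. For Vegfa they were Hivep2, a zinc finger transcription factor (0.0266), Ajuba, a LIM domain protein (0.0268), and Zfp24, a zinc finger protein (0.028), with the median gene 0.428 away. Among the 9 genes, Egln2 was the nearest to Hif1a at rank 413, and Vhl the nearest to Vegfa at rank 309.

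Levels between genes were compared as CPM per kilobase of the deposited gene length, in the no4sU libraries. Vegfa was at 44.1 ± 0.995 (SD, n = 2), Hif1a at 34.1 ± 6.25, Egln2 at 33.1 ± 3.91, Egln1 at 18.1 ± 1.41, Bnip3 at 15.6 ± 1.53, Arnt at 15.1 ± 0.663, Hif1an at 10.9 ± 1.48, Vhl at 8.83 ± 0.093 and Egln3 at 4.23 ± 0.213. Vegfa thus had the highest of the 9 levels per length and also the shortest apparent half-life after 120 min. Hif1a and Egln2 did not differ beyond the sum of their SDs, nor did Egln1 and Bnip3 or Bnip3 and Arnt. Of the prolyl hydroxylases, Egln2 had the highest and Egln3 the lowest level.

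The 9 genes lie on 7 chromosomes (GENCODE M21, GRCm38): Hif1a at chr12:73901375-73947530, Arnt at chr3:95434388-95497240, Vhl at chr6:113623959-113631633, Hif1an at chr19:44562850-44576274, Egln1 at chr8:124908587-124949324, Egln2 at chr7:27158658-27166802, Egln3 at chr12:54178981-54203860, Vegfa at chr17:46016993-46032369 and Bnip3 at chr7:138890836-138909519. Exons of other annotated genes overlap Hif1a (Gm15283 on the other strand and Gm49321 on the same), Egln2 (Cyp2t4, other strand) and Bnip3 (Gm45507, other strand). The use of strand in counting is not stated, so counts of these 3 genes may include reads of the overlapping ones and are uncertain. Counts of Bnip3 were not whole numbers in 11 of 12 libraries.

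Splitting each level by the NTR separated RNA present before labelling (old) from RNA made during it (new). Old Vegfa RNA, as a share of the no4sU mean, was 81.3% after 30 min, 37.6% after 60 min, 15.9% after 90 min and 5.19% after 120 min, while new Vegfa RNA reached 120 ± 9.05 CPM (SD, n = 2). At 120 min the old share was 8.84% for Vhl, 15.3% for Hif1an, 27.4% for Arnt, 41.6% for Egln3, 65.5% for Egln2, 66.0% for Hif1a, 71.8% for Bnip3 and 75.6% for Egln1. Hif1a still held 106 ± 3.06 CPM of old RNA beside 59.4 ± 6.14 CPM of new RNA.

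**Figure D2:**
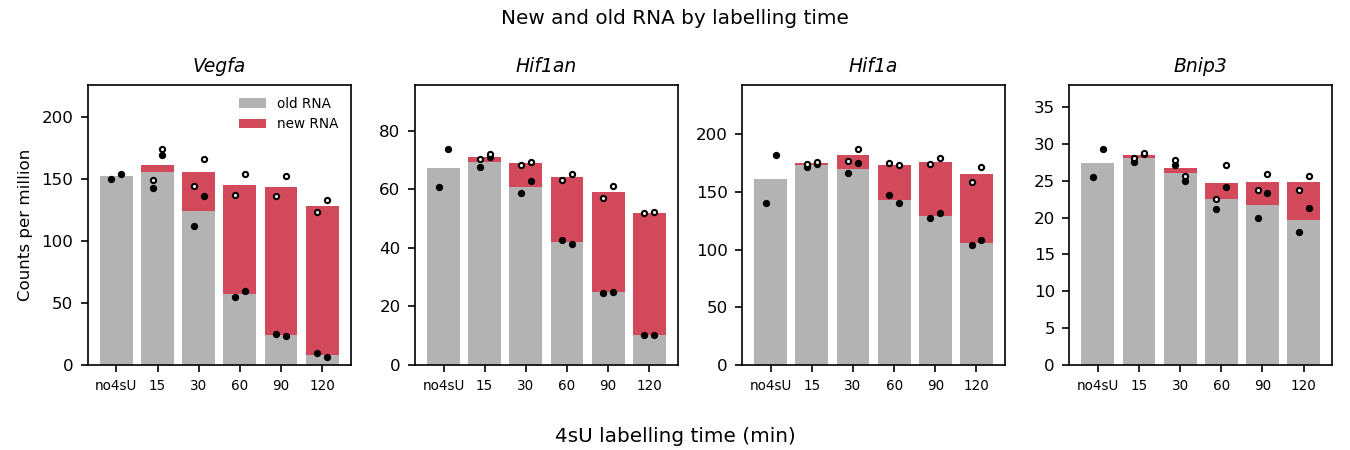
CPM of old (grey) and new (red) RNA, stacked, against labelling time in minutes for 4 genes, as means of 2 libraries. Black points are the old RNA of each library and white points its total. In Vegfa old RNA falls to 5.19% of the no4sU mean by 120 min, and in Bnip3 to 71.8%.

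Whether labelling changed the levels was first tested as 90 and 120 min against 15 and 30 min, 4 against 4 libraries, with the quasi-likelihood test of edgeR on 11564 genes and a threshold of 0.05 on the Benjamini-Hochberg adjusted p. Vegfa was at 149 and 174 CPM in replicates A and B after 15 min, 144 and 166 after 30 min, 137 and 154 after 60 min, 136 and 152 after 90 min, and 123 and 133 after 120 min, beside 150 and 154 in no4sU. The 120 min libraries were the lowest, and those of 90 min overlapped the short times. Hif1an was at 70.4 and 72.0 CPM after 15 min, 68.4 and 69.3 after 30 min, 63.2 and 65.2 after 60 min, 57.1 and 61.1 after 90 min, and 52.0 and 52.1 after 120 min. Its long and short times did not overlap.

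Arnt was at 64.3 and 61.5 CPM after 15 min, 64.4 and 62.6 after 30 min, 60.4 and 58.3 after 60 min, 59.0 and 58.6 after 90 min, and 54.4 and 50.6 after 120 min, also without overlap. Vhl was at 21.7 and 24.6 CPM after 15 min, 24.4 and 22.9 after 30 min, 21.2 and 21 after 60 min, 21.7 and 18.5 after 90 min, and 18.1 and 19.5 after 120 min, with 90 min replicate A at the level of 15 min replicate A. Hif1a ranged from 174 to 187 CPM at 15 and 30 min and from 159 to 179 at 90 and 120 min, and these ranges overlapped. As these are shares of a bulk library, fewer cells holding a transcript and less of it per cell cannot be told apart. A loss in alignment of reads with many T-to-C changes would also lower these counts, and its part in them was not tested.

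Of the 9 genes, 4 fell, and these were the 4 with the highest NTR. Over the genes tested, 13.3% were called lower in this comparison and 10.2% higher. Hif1an fell by 0.34 on the log2 scale (SE 0.0569, edgeR adjusted p = 0.000425). Vhl fell by 0.27 (SE 0.0751, adjusted p = 0.015), Vegfa by 0.22 (SE 0.0583, adjusted p = 0.01) and Arnt by 0.19 (SE 0.0497, adjusted p = 0.00991), all by edgeR. The other genes did not pass. Bnip3 had a log2 fold change of -0.15 (adjusted p = 0.147), Hif1a -0.063 (adjusted p = 0.454), Egln3 -0.018, Egln1 0.014 and Egln2 0.078. Among the 9 genes, 0 were called higher by edgeR or DESeq2, and 0 were higher before adjustment with either tool.

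The falls were set beside those of genes with a like NTR. In the decile of genes with the highest NTR, which holds Vegfa and Vhl, the median log2 fold change was -0.22 (quartiles -0.33 and -0.13) and 56.2% of the genes were called lower. In the decile below it, which holds Hif1an, the median was -0.18 (quartiles -0.28 and -0.10) and 48% were called lower. Arnt lay in the next decile, with a median of -0.11 and 29.8% called lower. Vegfa, Vhl and Arnt lay between the quartiles of their deciles, and Hif1an below the lower quartile. Bnip3, at -0.15, lay below the lower quartile of its decile, 0.044, whose median was 0.087. Egln2 lay above its upper quartile of 0.048.

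**Figure D3:**
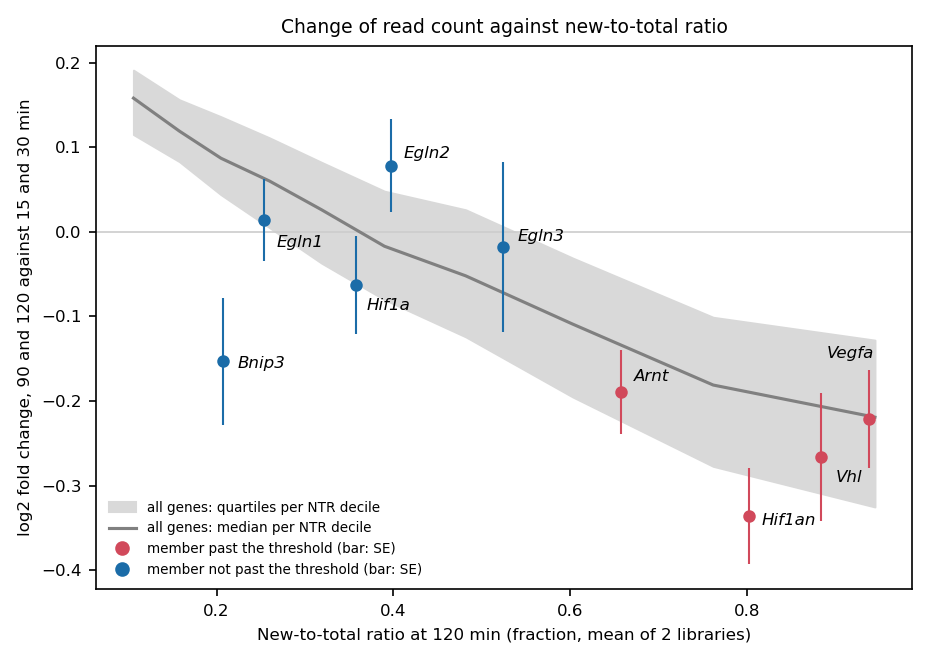
log2 fold change of 90 and 120 against 15 and 30 min (vertical axis) against the NTR after 120 min (mean of 2 libraries). The line and band are the medians and quartiles of genes in deciles by NTR, points are the 9 genes with SE bars, and red marks an edgeR adjusted p below 0.05. The 4 genes past the threshold have the 4 highest ratios, and Hif1an and Bnip3 lie below the band.

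For 3 of the 4 genes the call was lost without some single library. Hif1an kept its call without each of the 12 libraries in turn, with a highest edgeR adjusted p of 0.00459. Vegfa lost its call in the absence of 15 min replicate B (-0.17, adjusted p = 0.0762), 30 min replicate B (-0.18, adjusted p = 0.072), 90 min replicate A (-0.18, adjusted p = 0.0645) or 120 min replicate A (-0.20, adjusted p = 0.0574), by edgeR. Vhl did not pass with DESeq2 (-0.27, adjusted p = 0.0521), nor by edgeR without 15 min replicate B, 30 min replicate A, 90 min replicate B or 120 min replicate A (adjusted p from 0.0582 to 0.0842), nor Arnt without 15 min replicate A or 120 min replicate B (0.055 and 0.0571). When the new part of the counts was rescaled in each labelled library, so that its fold change against no4sU no longer correlated with NTR over genes with 100 or more counts on average, edgeR called 0 of the 9 genes (2 before adjustment), Hif1an was at -0.17 (adjusted p = 0.114) and Vegfa turned to 0.023.

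Comparing 120 with 15 min gave 3 lower genes of the 9, against 11.3% of all genes called lower and 7.93% higher. Hif1an fell by 0.45 (SE 0.0801, edgeR adjusted p = 0.000888), Vegfa by 0.33 (SE 0.0821, adjusted p = 0.00809) and Arnt by 0.27 (SE 0.0701, adjusted p = 0.0123). Vhl had a log2 fold change of -0.30 (adjusted p = 0.0552) and did not pass. Without either no4sU library, which enters this comparison only through the shared spread, Vhl passed by edgeR (adjusted p = 0.0227 and 0.0236). Vegfa lost its call in the absence of 15 min replicate B (-0.22, adjusted p = 0.164) or 120 min replicate A (-0.28, adjusted p = 0.104), as did Arnt in the absence of 15 min replicate A (adjusted p = 0.13) or 120 min replicate B (adjusted p = 0.151). Hif1an passed without each library. The libraries of this comparison are part of the one above, so the results are not independent.

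Against no4sU, 4 of the 9 genes were lower after 120 min, where 8.78% of all genes were called lower and 5.43% higher. Vhl fell by 0.39 (SE 0.103, edgeR adjusted p = 0.0174), Hif1an by 0.38 (SE 0.0798, adjusted p = 0.00418), Arnt by 0.33 (SE 0.0693, adjusted p = 0.00453) and Vegfa by 0.25 (SE 0.082, adjusted p = 0.0485). This comparison shares its 120 min libraries with the others. Fitted to these 4 libraries alone, edgeR called 0 of the 9 (4 before adjustment), and DESeq2 on all libraries called 2. Vegfa passed in 3 of 12 fits that left out a library. Hif1a turned with the reference: it was at 0.24 (edgeR adjusted p = 0.0029) without no4sU replicate B and at -0.13 (adjusted p = 0.0578) without no4sU replicate A. Egln2 passed without no4sU replicate A (0.25, adjusted p = 0.0069), and Hif1an lost its call without 120 min replicate A (adjusted p = 0.0525) or B (0.0518), by edgeR. Vhl lost it without 120 min replicate A (edgeR adjusted p = 0.137) or B (0.0691), and Arnt without 120 min replicate B (0.0859). With the new part of the counts rescaled, Vegfa turned to 0.037.

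**Figure D4:**
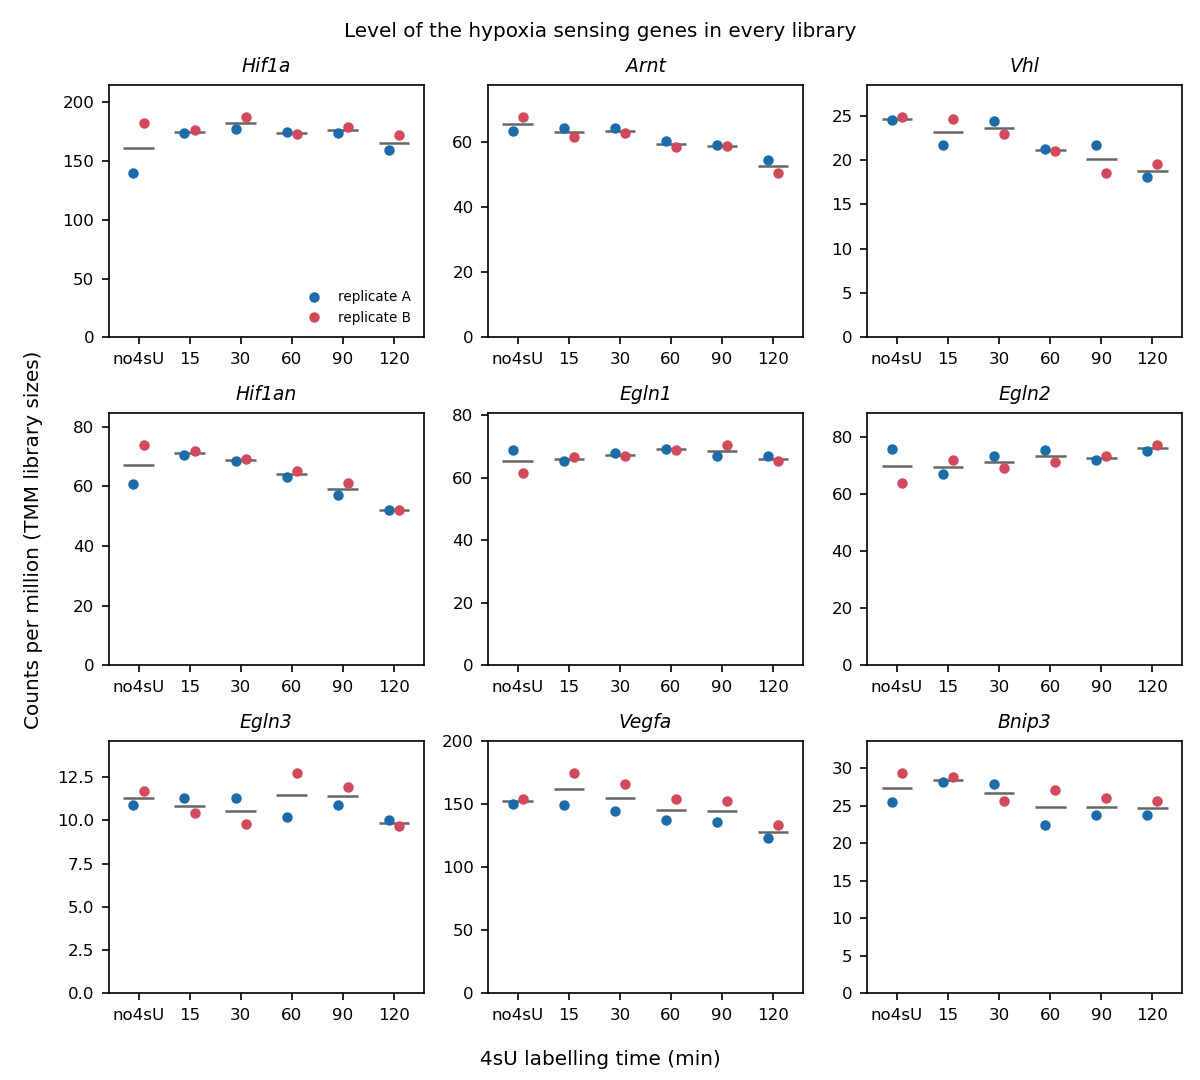
CPM (vertical axes from 0, with TMM library sizes) of the 9 genes in every library against labelling time in minutes. Points are libraries (A blue, B red) and lines group means. Hif1an runs from 72.0 after 15 min down to 52.0 after 120 min, and Hif1a stays between 140 and 187.

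Other regulators of HIF went both ways. Of a list of 20, 16 were tested, and in 90 and 120 against 15 and 30 min 5 fell and 5 rose, where 13.3% of all genes were called lower and 10.2% higher, with a median log2 fold change of 0.098 beside 0.009 over all genes. Siah1a (-0.53, SE 0.0792) and Siah2 (-0.30, SE 0.0766), ubiquitin ligases that act on prolyl hydroxylases, fell. So did Kdm3a, a histone demethylase (-0.53, SE 0.0718), Cited2, which competes with HIF for its coactivators (-0.49, SE 0.0441), and the coactivator gene Ep300 (-0.24, SE 0.0568), with edgeR adjusted p-values from 5.69e-07 to 0.00896. Crebbp, the coactivator gene related to Ep300, rose by 0.30 (SE 0.0625, adjusted p = 0.00204 by edgeR).

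Ep300 and Crebbp had similar ratios, an NTR of 0.891 ± 0.0262 (SD, n = 2) and 0.959 ± 0.0197 after 120 min, and in this comparison Ep300 fell and Crebbp rose. With the new part of the counts rescaled, as above, Ep300 was at -0.034 (edgeR adjusted p = 0.809) and Crebbp at 0.53, and against no4sU Ep300 did not pass (-0.16, edgeR adjusted p = 0.183). The level of Crebbp was 61.6 CPM in no4sU, 63.3 after 15 min and 86.9 after 120 min, and that of Ep300 was 96.4, 106 and 86.7. The other rises were in genes with a low NTR: Elob, a subunit of the Vhl ubiquitin ligase (0.20, NTR 0.0797), Os9, a lectin of the endoplasmic reticulum (0.20, NTR 0.0901), Rack1, a scaffold protein (0.16, NTR 0.121), and Hsp90ab1, a chaperone (0.13, NTR 0.204). The last 2 lay outside the 8 largest called changes of the list in this comparison and were named after their values were seen. With the new part of the counts rescaled, 4 of these 10 calls held by edgeR, namely Siah1a (-0.30, adjusted p = 0.0401), Kdm3a (-0.33, adjusted p = 0.0119), Cited2 (-0.22, adjusted p = 0.00672) and Crebbp, while Siah2 was at -0.037 (adjusted p = 0.858) and Elob, Os9, Rack1 and Hsp90ab1 were at 0.047 to 0.062 (adjusted p from 0.432 to 0.599). In the other comparisons 3 rose and 3 fell against no4sU (all genes: 5.43% higher, 8.78% lower), and 5 rose and 6 fell for 120 against 15 min (all genes: 7.93% higher, 11.3% lower).

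Of 37 further HIF target genes, 34 were in the table and 32 were tested. In 90 and 120 against 15 and 30 min 7 fell and 6 rose, beside 13.3% of all genes called lower and 10.2% higher, with a median log2 fold change of -0.045. The falls were Ankrd37, an ankyrin repeat protein (-0.53, SE 0.166), Wsb1, a ubiquitin ligase subunit (-0.50, SE 0.0514), Pfkfb3, a regulator of glycolysis (-0.47, SE 0.1), Ak4, a mitochondrial adenylate kinase (-0.36, SE 0.0605), Stc2, a secreted glycoprotein (-0.34, SE 0.0656), the hexokinase Hk2 (-0.29, SE 0.0552) and the transcriptional repressor Bhlhe40 (-0.29, SE 0.0792). Their edgeR adjusted p-values ran from 3.44e-06 to 0.0255. Each of these had an NTR of at least 0.71 after 120 min, but Ankrd37 rested on a mean count of 48.5.

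The 6 targets that rose were Fam162a (0.20), the mitophagy receptor Bnip3l (0.19), the collagen-modifying enzymes Plod1 (0.17) and P4ha1 (0.11), and the glycolytic enzymes Pgk1 (0.16) and Ldha (0.16), with an NTR of at most 0.113. All but Fam162a lay outside the 8 largest called changes of the list in this comparison and were named after their values were seen. Among all genes, the decile with the lowest NTR (median NTR 0.106) had a median log2 fold change of 0.158, with quartiles of 0.115 and 0.191. Slc2a1, the glucose transporter, was at 0.014 (edgeR adjusted p = 0.819) with an NTR of 0.455. With library sizes alone as the scaling, 12 targets were called lower and 3 higher. After the new part of the counts was rescaled edgeR called 2, both lower, Wsb1 (-0.31, adjusted p = 0.00131) and Tfrc (-0.2, adjusted p = 0.0277). Tfrc was not called in the main edgeR fit (-0.095, adjusted p = 0.167). Of the falls and rises named above, only that of Wsb1 thus held, and P4ha1 turned to -0.00644. With library sizes alone Fam162a, Plod1 and P4ha1 were no longer called (edgeR adjusted p = 0.0964, 0.111 and 0.277), and neither was the regulator Hsp90ab1 (0.0705). DESeq2 did not call Fam162a, Plod1 and P4ha1 either (adjusted p = 0.0609, 0.0705 and 0.1). In the other comparisons 7 fell and 4 rose against no4sU (all genes: 8.78% lower, 5.43% higher), and 7 fell and 6 rose for 120 against 15 min (all genes: 11.3% lower, 7.93% higher).

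**Figure D5:**
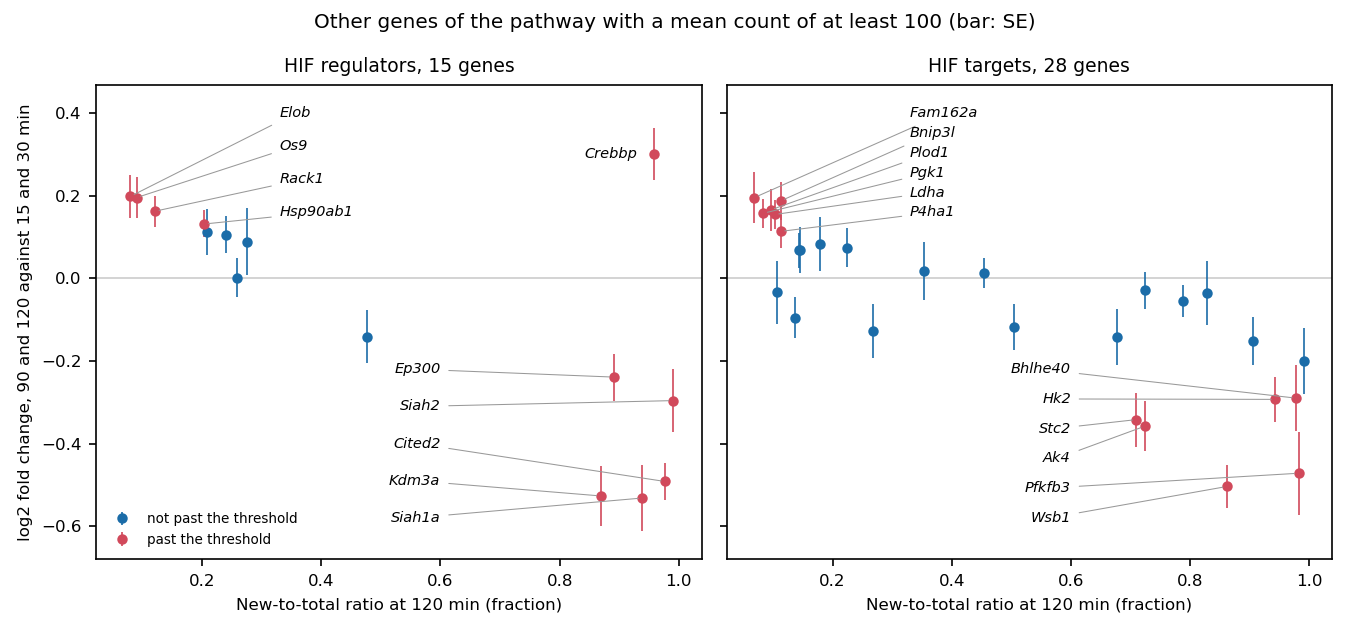
log2 fold change of 90 and 120 against 15 and 30 min against the NTR after 120 min for 15 regulators and 28 targets of HIF with 100 or more counts on average. Bars are SE and red marks an edgeR adjusted p below 0.05. Called genes with a high ratio lie below 0 except Crebbp, and those with a low ratio lie above 0.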

How the data were processed

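The authors deposited a table with estimated counts per gene and library, not scaled between libraries, in which 20.4% of the values were not whole (tolerance 1e-06). They were rounded for the tests. The NTR is a fraction deposited per labelled library in several forms per the file headers: the posterior maximum, which was used here, its mean, and the quantiles 0.05 and 0.95. The deposited alpha and beta columns, each a score with no fixed range, were not used. The submitters' processing notes name cutadapt, Bowtie2 2.3.0 and STAR 2.7.10b without their roles. Genome build, counting tool and strand use: not given in the sources used here. Reads rich in conversions may be lost in alignment, and counts and NTR would then both be too low.

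Groups and replicates were taken from the sample titles. Nothing in the labels says that replicates A and B came from separate cultures, so p-values measure only the spread between these libraries. edgeR 4.0.16 in R 4.3.3 fitted all 12 libraries together without covariates (filterByExpr, TMM factors 0.970 to 1.02, common biological coefficient of variation 4.44%). Apparent half-lives t × ln 2/−ln(1 − NTR) were computed for labelling time t. SEs were taken as |log2 fold change|/√F. DESeq2 1.42.0 was the other tool. Other alternatives were scaling by library size alone, no filter, a fit of only the groups compared, a replicate block, leaving out each library, and rescaling the new part of counts by the loss that brought the rho of a library's fold change against no4sU with NTR to 0. This loss ran from a fraction of 0.00442 to 0.321 in 7 libraries and was negative, so that the new part was scaled down, in 3 (15 min A -0.297, 15 min B -0.0282, 30 min B -0.0256). The deposited gene length equalled that of the longest GENCODE M21 transcript for 99.0% of the 17376 genes found there.

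The genes, the lists of regulators and targets and the tests were chosen with earlier results of these data known. The rule for names took the 9 genes, the 3 genes nearest in NTR to Hif1a and to Vegfa, and for each list and comparison up to 8 called genes with the largest change. After the analysis, 1 gene of the target list was left out of its counts and is not reported here. Counting error and the spread of 2 libraries limit all values. Tables and figures were made in Python 3.11.15 (pandas 2.3.3, matplotlib 3.10.9).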

Additional observations from a re-analysis of the deposited data

How the results depend on the processing

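Over 11564 genes, edgeR called 1643 for 120 min against no4sU, 2228 for 120 against 15 min and 2715 for 90 and 120 against 15 and 30 min. DESeq2 gave 1060, 1439 and 1836, with 2, 3 and 3 of the 9 genes. A fit of only the groups compared gave 171, 3818 and 4081, with 0, 4 and 5 of the 9, the fifth being Bnip3 (adjusted p = 0.0487). Rescaling the new part of the counts gave 188, 259 and 366, with 0 of the 9 in each and 2 at an unadjusted p under 0.05; by construction it takes away the relation of fold change and NTR. Library sizes alone gave 1887 (203 higher), 2293 (426 higher) and 2627 (460 higher), against 628, 917 and 1181 higher with TMM, and called 4 of the 9 each time. Without a filter 1986, 2399 and 2830 genes were called. Leaving out a library gave 452 to 3533, 657 to 3701 and 1540 to 4120 genes, and 0 to 5, 2 to 4 and 2 to 4 of the 9; where this left 1 library in a group, that library was assumed to vary like the others.

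Over all genes tested, no pairing by the letters A and B was seen. The deviations of replicate A correlated between -0.0364 and 0.0744 over 15 pairs of groups. This does not exclude a pairing in single genes. Vegfa and Hif1an were higher in replicate B in each of the 6 groups, while the order varied in the others of the 9. With a replicate block the edgeR adjusted p of Vegfa against no4sU was 0.00883, beside 0.0485 without it. With the replicate block 1737, 2315 and 2809 genes passed, with 4, 3 and 4 of the 9, and no call among the 9 genes changed.

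Signs turned mostly in genes near 0. Against no4sU, library sizes alone put Hif1a at -0.03 and Egln1 at -0.043, and rescaling the new part put Egln1 at -0.048 and Vegfa at 0.037. For 120 against 15 min Egln1 was at -0.0012 with DESeq2, -0.055 with library sizes alone, -3e-05 without a filter, -0.0033 with only the groups compared and -0.07 with the new part rescaled. For 90 and 120 against 15 and 30 min, Egln1 was at -0.036 with library sizes alone and -0.044 with the new part rescaled, which also put Egln3 at 0.043 and Vegfa at 0.023. Leaving out a library moved Hif1a against no4sU from -0.133 to 0.243, and Egln1 from -0.059 to 0.101 against no4sU, -0.011 to 0.017 for 120 against 15 min and -0.0083 to 0.029 for the last comparison, where Egln3 ran from -0.067 to 0.037. The cause was not tested. Depth limits Egln3, Vhl and Bnip3 most, with mean counts of 124.9, 250.7 and 300.5.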
